A study of Mus musculus with 17 samples.

Results

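The genes that designate and mature meiotic crossovers were followed through 3 stages of spermatogenesis in wild-type (WT) mice and in mice that lack the RNA acetyltransferase gene *Nat10* in germ cells (*Nat10*-SKO). The 9 members were chosen by symbol, with no use of their measured values: *Tex11*, *Hfm1*, *Msh4*, *Msh5*, *Rnf212*, *Ccnb1ip1*, *Cntd1*, *Prr19* and *Mlh3*. Of these, 8 were listed among the 23282 genes of the deposited table, and *Rnf212* matched no gene symbol there and was not analysed here. Both genotypes were labelled C57BL/6, and the study's methods give the background as C57BL/6J. In *Nat10*-SKO mice, *loxP*-flanked exons of *Nat10* were removed by a Cre knocked in at *Stra8*, a gene that germ cells switch on as they prepare for meiosis. The study writes the genotype as *Nat10* fl/-;*Stra8-Cre*, that is, a floxed allele over a null allele. No treatment is given in the labels, and the age of the mice sorted for these libraries is not given in the sources used here. Spermatogonia (SPG) comprised 3 WT and 3 *Nat10*-SKO libraries, pre-leptotene spermatocytes (PreL) 3 and 3, and leptotene/zygotene spermatocytes (LZ) 2 and 3, which gave 17 libraries. Nothing in the labels says that replicates came from separate animals, so p-values measure only the spread between these libraries.

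Crossovers join homologous chromosomes until they part at the first meiotic division. A group of pro-crossover proteins marks a subset of recombination intermediates: TEX11 is the mammalian counterpart of the yeast protein Zip4, HFM1 is a helicase, and MSH4 and MSH5 form a clamp on branched DNA. MSH4, MSH5 and MLH3 descend from the mismatch-repair family but serve meiosis here. RNF212 and CCNB1IP1 (HEI10) are RING-finger proteins that together set which sites are kept, the cyclin-like CNTD1 and its partner PRR19 are needed for sites to mature in pachytene, the stage after zygotene, and MLH3 is the endonuclease subunit of the complex found at crossover sites.

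Promoter sequences of 4 members are shown because these genes gave the widest contrasts below: *Cntd1* and *Prr19* were the members furthest reduced in *Nat10*-SKO LZ, and *Hfm1* and *Msh5* were those that rose from SPG to PreL in *Nat10*-SKO cells. Each runs from 250 bases before to 50 bases after the annotated start, 5′ to 3′ along the gene's strand, from RefSeq on GRCm38.p6, in which 7 of the 8 listed members matched a promoter. Capitals mark every match, on either strand, to 5 short motifs: the E-box CACGTG, the E2F-type element GGCGGGAA, the element CNCCTCAG described for STRA8-bound promoters, and the MYB cores AACTG and AACGG. The windows are chr11:101278953-101279252 (+) for *Cntd1*, chr7:25301109-25301408 (+) for *Prr19*, chr5:106925841-106926140 (-) for *Hfm1* and chr17:35046573-35046872 (-) for *Msh5*.
*Cntd1*: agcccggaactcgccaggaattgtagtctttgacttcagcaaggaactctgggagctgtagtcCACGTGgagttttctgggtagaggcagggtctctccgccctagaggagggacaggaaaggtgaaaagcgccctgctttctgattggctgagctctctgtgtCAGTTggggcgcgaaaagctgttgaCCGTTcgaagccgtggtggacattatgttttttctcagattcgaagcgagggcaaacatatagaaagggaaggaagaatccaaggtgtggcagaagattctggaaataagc
*Prr19*: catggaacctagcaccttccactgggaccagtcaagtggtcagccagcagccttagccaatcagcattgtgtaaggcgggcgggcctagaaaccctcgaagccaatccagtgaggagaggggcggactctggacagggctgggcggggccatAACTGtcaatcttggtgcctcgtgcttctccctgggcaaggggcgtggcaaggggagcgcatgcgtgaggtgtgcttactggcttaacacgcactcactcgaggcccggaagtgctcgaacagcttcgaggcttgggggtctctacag
*Hfm1*: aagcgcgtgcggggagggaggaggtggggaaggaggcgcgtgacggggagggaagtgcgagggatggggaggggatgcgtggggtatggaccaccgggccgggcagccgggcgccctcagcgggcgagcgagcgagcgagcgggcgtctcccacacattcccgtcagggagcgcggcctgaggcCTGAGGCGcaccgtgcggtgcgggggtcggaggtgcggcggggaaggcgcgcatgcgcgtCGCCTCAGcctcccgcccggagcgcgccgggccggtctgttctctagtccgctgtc
*Msh5*: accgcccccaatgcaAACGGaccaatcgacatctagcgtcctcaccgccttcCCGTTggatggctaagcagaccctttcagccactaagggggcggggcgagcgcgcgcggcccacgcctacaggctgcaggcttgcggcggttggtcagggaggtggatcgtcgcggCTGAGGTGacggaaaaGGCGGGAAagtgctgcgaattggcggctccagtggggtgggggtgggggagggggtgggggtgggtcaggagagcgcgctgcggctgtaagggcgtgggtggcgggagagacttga

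The *Cntd1* window held CACGTG, which 7.24% of 27025 promoters of this length hold, with 1 AACTG and 1 AACGG. The *Prr19* window held a single AACTG, a motif found in 44.8% of promoters. *Hfm1* had CNCCTCAG at positions -66 and -6 from the start, on opposite strands, and *Msh5* had it at -82, where 7.97% of promoters hold the motif at least once. *Msh5* was the only listed member whose window held GGCGGGAA, at -66, a motif in 2.24% of promoters, and it also held AACGG at -235 and -198, a motif in 17.7% of promoters. Matched motifs did not overlap in these windows. GC content was 51.3% for *Cntd1*, 60.7% for *Prr19*, 75.3% for *Hfm1* and 67.3% for *Msh5*. These matches describe letters in a window and were not tested for binding.

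The recovered reads per library ranged from 5812380 to 13820953. The 2 WT LZ libraries were the deepest, with 13666762 and 13820953, and the 3 *Nat10*-SKO LZ libraries the shallowest, with 5812380 to 7609420. Levels are given below as rescaled values, that is, ERCC-calibrated counts divided by size factors over all 17 libraries, on which 1 read was worth 1.41 to 5.45. Fold changes come from limma with Benjamini-Hochberg adjustment on log2(rescaled value + 10), with rescaling within the libraries compared, and therefore understate the change of low genes. Rescaling sets aside changes that all genes share: without it, the median log2 fold change of all genes moved from 0.04 to 0.73 for *Nat10*-SKO against WT in PreL, and from 0.16 to 1.84 for WT LZ against PreL. Genes were called where the adjusted p was under 0.05 and the log2 fold change above 1 in size. *Nat10* itself was below every WT library in every *Nat10*-SKO library of its stage, with log2 fold changes of -0.87 in SPG, -1.29 in PreL and -1.47 in LZ (adjusted p = 0.0326, 0.00591 and 0.00469).

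The labelled cell types were checked against marker genes before the members were read. In LZ, the summed rescaled value of 10 early meiotic prophase markers was 91585 to 136250 in WT and 103433 to 142600 in *Nat10*-SKO, with *Spo11* (-2.18 on the log2 scale) and *Syce3* (-1.03) called lower. Markers of cells past zygotene moved far more. The summed rescaled value of 8 late spermatocyte markers, led by *Ldhc*, was 52171 and 125112 in WT LZ replicates 2 and 3 and 531 to 637 in the *Nat10*-SKO LZ libraries, and 6 of the 7 that were tested were called lower, none of the 8 being at 0. The 6 spermatid markers summed to 14055 to 18402 in WT LZ and 195 to 283 in *Nat10*-SKO LZ, all 6 called lower, with *Acrv1* at 0 in every *Nat10*-SKO LZ library. The late spermatocyte markers also rose across the WT stages, from 1498 to 3311 in SPG and 5383 to 19581 in PreL. Leydig cell markers moved the other way, at 505 to 926 in WT LZ and 1955 to 5521 in *Nat10*-SKO LZ, with 3 of 5 called higher. The sum of the 8 spermatogonial markers was also higher, at 8767 to 15575 in WT LZ and 19667 to 23484 in *Nat10*-SKO LZ. Of these, 2 were called higher, *Dmrt1* (1.29, adjusted p = 0.0017) and *Kit* (1.12, 0.00364), and none was called lower. *Gfra1* had a lower mean in *Nat10*-SKO LZ, 17.8 against 75.3 in WT LZ. In bulk samples of this kind, fewer cells of a type and less RNA per cell cannot be told apart, and the part of these markers in the members' results was not tested.

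**Figure D1:**
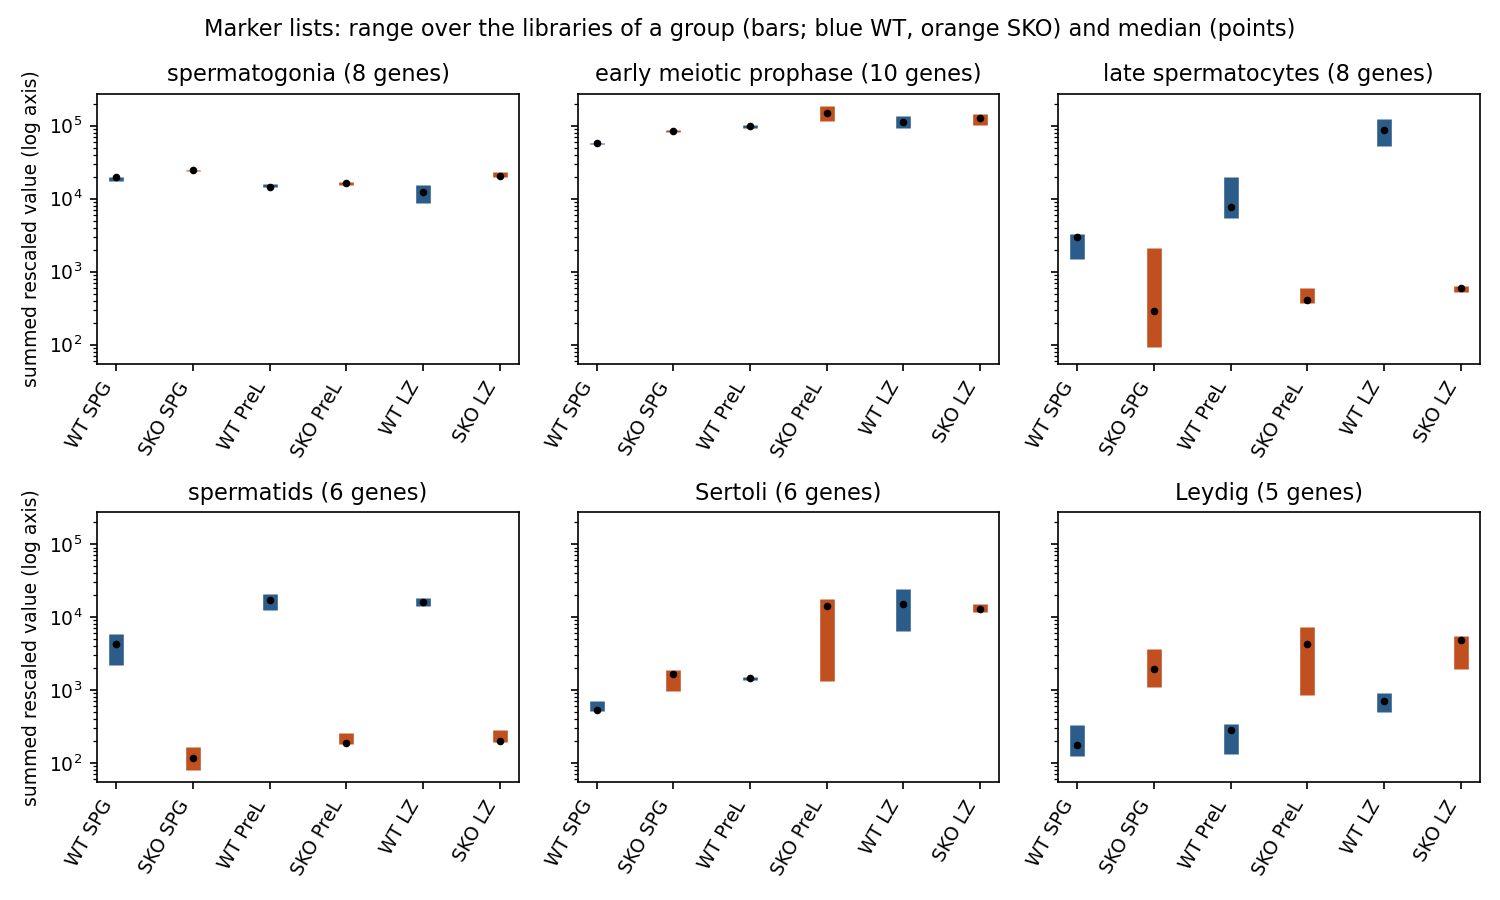
Summed rescaled values of the marker lists in the 6 groups, on log axes, with a bar from the lowest to the highest library of a group (WT blue, *Nat10*-SKO orange) and a point at the median. Late spermatocyte markers reach 52171 to 125112 in WT LZ and 531 to 637 in *Nat10*-SKO LZ, whereas early meiotic prophase markers overlap between the genotypes in LZ.

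Some of the crossover genes fell in *Nat10*-SKO LZ cells. *Cntd1*, *Prr19*, *Mlh3* and *Msh4* were called lower, 4 of 8 tested members, where 25.8% of all genes tested were called lower and 13.4% higher. No member was called higher by limma, edgeR or DESeq2. Without WT LZ replicate 3, 1 of 8 members, *Cntd1*, stayed called lower. The members' median log2 fold change was -0.94, against -0.13 over all genes. Every *Nat10*-SKO LZ library lay below every WT LZ library for 5 members, the fifth being *Ccnb1ip1*, as did 39.6% of all genes. No member had every *Nat10*-SKO LZ library above WT, as 30.7% of all genes did.

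*Cntd1* had the widest difference. The WT LZ libraries held 1185 and 1293 reads of *Cntd1* (rescaled values of 1667 and 2393). The *Nat10*-SKO LZ libraries held 12, 26 and 21 reads (65.4, 92.0 and 87.8). The group means differed 24.8-fold and the groups stood far apart. The log2 fold change was -4.56 (SE 0.31, 95% interval -5.29 to -3.83, adjusted p = 5.51e-05), and *Cntd1* remained called in all 17 alternatives run for the LZ comparison, from -4.87 to -4.28. *Cntd1* (chr11:101279012-101296317, + strand, GRCm38) shares 3104 of its 4421 exonic bases with *Becn1*, an autophagy gene on the opposite strand, and 82 with *Coa3*. The study describes no library step that kept the strand, and the strand setting of the counting is not given in the sources used here. Without strand, reads from the shared bases cannot be told apart. *Becn1* held 1674 and 1587 reads in WT LZ and 177, 295 and 184 in *Nat10*-SKO LZ, with a log2 fold change of -1.53 (adjusted p = 0.000702). From PreL to LZ in WT, *Becn1* moved by 0.10 on the log2 scale, whereas *Cntd1* rose.

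*Prr19*, whose protein partners CNTD1, had 144 and 451 reads in the WT LZ libraries (rescaled values of 203 and 835). In *Nat10*-SKO LZ it had 8, 28 and 15 reads (43.6, 99.1 and 62.7). All *Nat10*-SKO libraries were lower, but the WT libraries stood wide apart, with a mean of 519 ± 447 (SD, n = 2). The higher of the 2 was replicate 3, in which every other listed member was also higher than in replicate 2. Replicate 3 had higher sums of late spermatocyte markers and of early meiotic prophase markers (136250 against 91585). It had lower sums of Sertoli cell markers (6385 against 24286) and of spermatogonial markers (8767 against 15575). The part of these differences in the *Prr19* values was not tested. The log2 fold change was -2.60 (SE 0.64, 95% interval -4.09 to -1.10, adjusted p = 0.0119), and without WT LZ replicate 3 it was -1.59 (adjusted p = 0.103).

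*Mlh3*, the endonuclease subunit, fell to a lesser degree. WT LZ libraries had 378 and 462 reads (rescaled values of 532 and 855), and *Nat10*-SKO LZ libraries had 51, 55 and 59 (278, 195 and 247). The groups did not overlap, and the *Nat10*-SKO libraries lay close together. The log2 fold change was -1.50 (SE 0.32, 95% interval -2.25 to -0.76, adjusted p = 0.00615). Without WT LZ replicate 3 it was -1.17 (adjusted p = 0.0635).

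The clamp subunits *Msh4* and *Msh5* gave different calls, with intervals that overlapped. *Msh4* had 308 and 278 reads in WT LZ (rescaled values of 433 and 515) and 20, 68 and 60 reads in *Nat10*-SKO LZ (109, 241 and 251). *Nat10*-SKO replicate 1 was the lowest and all 3 were below WT. The log2 fold change of *Msh4* was -1.32 (SE 0.41, 95% interval -2.29 to -0.36, adjusted p = 0.0301). Its call was lost without WT LZ replicate 2 (-1.49, adjusted p = 0.132), without WT LZ replicate 3 (-1.20, 0.216) and without *Nat10*-SKO LZ replicate 1 (-0.94, 0.0529), and it held in 12 of 17 alternatives. *Msh5* had rescaled values of 415 and 614 in WT LZ and of 343, 258 and 464 in *Nat10*-SKO LZ. Its ranges overlapped, and the log2 fold change of -0.56 (95% interval -1.34 to 0.23, adjusted p = 0.203) did not pass. Whether *Msh4* and *Msh5* differed was not tested.

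The other members did not pass in LZ. *Hfm1*, the helicase, had rescaled values of 2573 and 4003 in WT LZ and of 2206, 2230 and 2788 in *Nat10*-SKO LZ, which overlapped (log2 fold change -0.44, 95% interval -0.98 to 0.10, adjusted p = 0.152). *Ccnb1ip1* was lower in each *Nat10*-SKO library, at 839, 828 and 798 against 1024 and 1277, with a log2 fold change of -0.49 (95% interval -0.93 to -0.05, adjusted p = 0.0642). It shares 233 exonic bases with *Rpph1* on the same strand. *Tex11*, on the X chromosome, had rescaled values of 5142 and 7831 in WT LZ and of 7205, 8394 and 7895 in *Nat10*-SKO LZ. It was the single member with a positive estimate, 0.29 (95% interval -0.21 to 0.78, adjusted p = 0.298), and its groups overlapped. The intervals of *Hfm1*, *Ccnb1ip1*, *Msh5* and *Tex11* all lay above the interval of *Cntd1*.

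The same 4 members were called lower when the WT LZ libraries were made shallower. The *Nat10*-SKO LZ libraries were left at their own depths. After random thinning of both WT LZ libraries to the read total of the shallowest *Nat10*-SKO LZ library, the log2 fold changes were -4.50 for *Cntd1*, -2.57 for *Prr19*, -1.61 for *Mlh3* and -1.40 for *Msh4*, each still called lower.

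**Figure D2:**
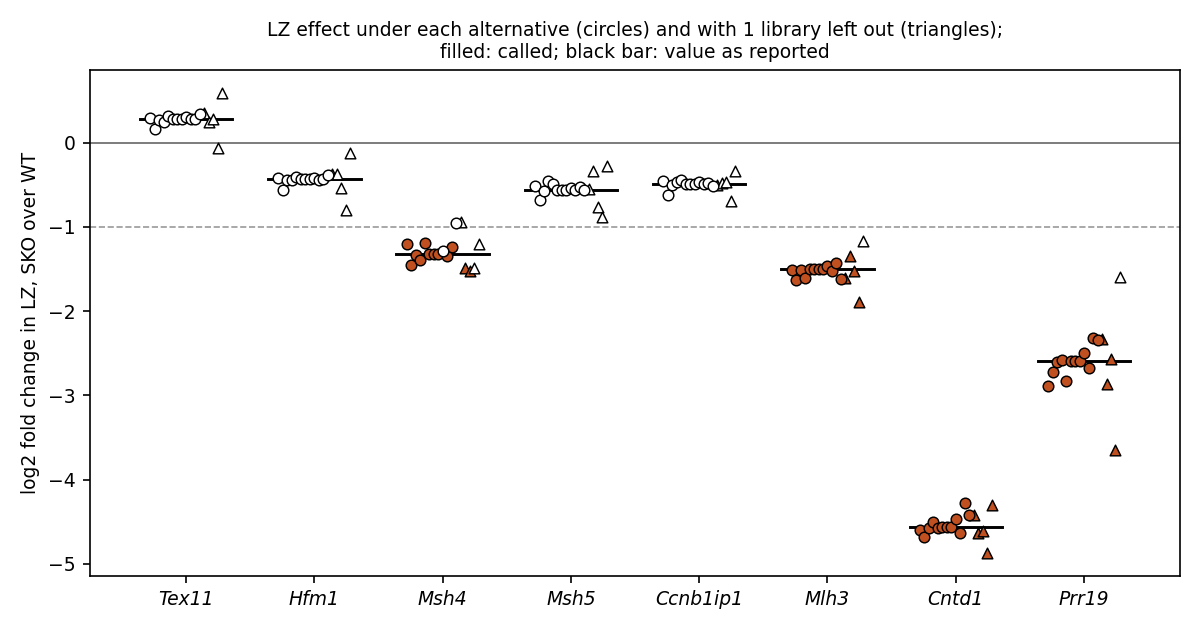
Log2 fold change of each listed member in *Nat10*-SKO against WT LZ under the reported processing and each alternative, where circles are other settings, triangles leave out 1 library, filled symbols are called, the black bar is the reported value and the dashed line is the fold threshold. *Cntd1* keeps a log2 fold change between -4.87 and -4.28, while *Prr19* spans -3.65 to -1.59.

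In WT cells, 1 member was called higher on entry into PreL and 3 on entry into LZ, and whether the steps differed was not tested. From SPG to PreL, *Hfm1* was the only member called higher, 1 of 8, where 2.15% of all genes were. *Hfm1* had rescaled values of 771, 589 and 829 in WT SPG and of 2598, 2764 and 2658 in WT PreL. Every PreL library was above every SPG library, and the log2 fold change was 1.85 (SE 0.19, adjusted p = 0.00108). *Cntd1* had rescaled values of 114, 198 and 261 in WT SPG and of 504, 466 and 262 in WT PreL, ranges that met at their ends (1.06, adjusted p = 0.0964). The remaining members had log2 fold changes from -0.31 (*Prr19*) to 0.83 (*Msh4*), none past the test. Over this step 4 of 10 early meiotic prophase markers were called higher and 1 lower. Of late spermatocyte markers tested, 4 of 7 were called higher, as were 4 of 6 spermatid markers. The part of these markers in the rise of *Hfm1* was not tested.

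From PreL to LZ in WT, *Prr19*, *Cntd1* and *Mlh3* were called higher, 3 of 8, where 20.2% of all genes were. *Prr19* had 20, 16 and 16 reads in WT PreL (rescaled values of 39.8, 34.2 and 35.0) before the 203 and 835 of WT LZ, a log2 fold change of 3.09 (SE 0.58, adjusted p = 0.0018). *Cntd1* rose by 2.23 (SE 0.38, adjusted p = 0.00109). *Mlh3* had rescaled values of 293, 425 and 149 in WT PreL, all below both WT LZ libraries, and a log2 fold change of 1.23 (SE 0.45, adjusted p = 0.0467). The call of *Mlh3* was lost in 12 of 19 alternatives, with an adjusted p of up to 0.409. *Tex11* moved down: its rescaled values were 10482, 10870 and 13648 in WT PreL and 5142 and 7831 in WT LZ (-0.95, adjusted p = 0.00259), a change that stayed under the fold threshold. *Msh4*, *Msh5*, *Ccnb1ip1* and *Hfm1* had log2 fold changes of 0.85, 0.64, 0.29 and 0.18, none past the test. Without rescaling, 7 of 8 members were called higher, as were 10861 of the 13566 genes tested. *Tex11* turned to 0.82, against a median of 1.84 over all genes on that scale. Over the same step 6 of 7 late spermatocyte markers tested were called higher, as were 6 of 6 Sertoli cell markers (1368 to 1487 in PreL and 6385 to 24286 in LZ), 2 of 6 spermatid markers, 1 of 5 Leydig cell markers and the 1 peritubular myoid marker tested. Their part in the rise of the members was not tested.

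**Figure D3:**
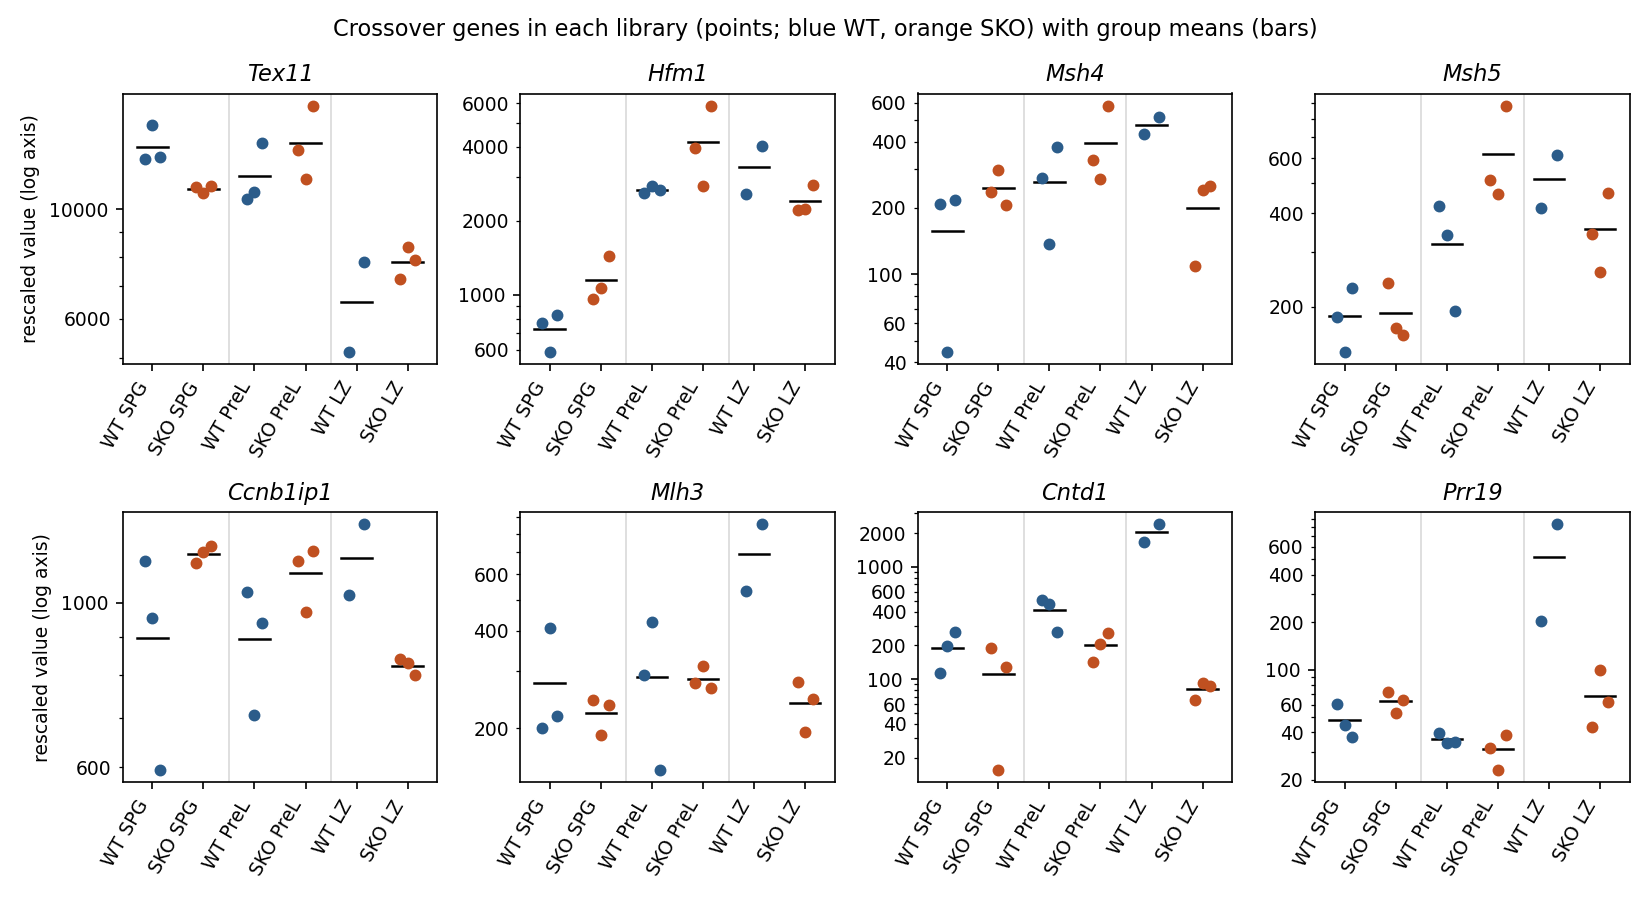
Rescaled value of each listed member in every library, on log axes, by stage and genotype (WT blue, *Nat10*-SKO orange), with a bar at the group mean. *Cntd1* and *Prr19* are highest in WT LZ, *Hfm1* rises from SPG to PreL in both genotypes, and *Tex11* is lowest in LZ.

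In *Nat10*-SKO cells the calls fell on the step into PreL. From SPG to PreL, *Hfm1* and *Msh5* were called higher, 2 of 8, where 3.33% of all genes were. *Hfm1* had rescaled values of 959, 1065 and 1432 in *Nat10*-SKO SPG and of 3937, 2762 and 5852 in *Nat10*-SKO PreL (1.80, adjusted p = 0.00149). *Msh5* went from 238, 171 and 162 to 511, 460 and 884 (1.61, adjusted p = 0.00779). Both genes were higher in every PreL library. Over this step 4 of 6 Sertoli cell markers were called higher and 2 of 2 peritubular myoid markers tested lower. Of 10 early meiotic prophase markers, 4 were called higher and 1 lower. The part of these markers in the rise of *Hfm1* and *Msh5* was not tested. From PreL to LZ, none of the 8 members was called in either direction by limma, edgeR or DESeq2, where 14.8% of all genes were called by limma, and 5 members had an unadjusted p under 0.05. *Tex11* (-0.81, adjusted p = 0.000623), *Hfm1* (-0.75, 0.0314) and *Ccnb1ip1* (-0.42, 0.0337) had an adjusted p under 0.05 with a fold under the threshold. *Cntd1*, which rose over this step in WT, had an estimate of -1.20 (SE 0.63, adjusted p = 0.168), and *Prr19* had 0.88 (adjusted p = 0.15). Without *Nat10*-SKO PreL replicate 2, 2 members were called lower over this step, and without *Nat10*-SKO SPG replicate 3, 1 was.

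In PreL, none of the 8 members was called between the genotypes by limma or edgeR and 1 was by DESeq2, where limma called 11.1% of all genes in either direction. At an unadjusted p under 0.05 there were 3, *Cntd1*, *Hfm1* and *Msh5*. *Cntd1* was already lower in every library: 504, 466 and 262 in WT against 141, 206 and 258 in *Nat10*-SKO. The nearest WT and *Nat10*-SKO libraries almost touched, and the log2 fold change of -0.96 had a 95% interval of -1.69 to -0.24 (adjusted p = 0.0668). It was called lower with DESeq2 (-1.02), without WT PreL replicate 4 (-1.26) and without *Nat10*-SKO PreL replicate 3 (-1.15). *Msh5* was higher in every *Nat10*-SKO library, at 511, 460 and 884 against 420, 340 and 195 (0.95, 95% interval 0.21 to 1.69, adjusted p = 0.0765). *Hfm1* had an estimate of 0.58 (adjusted p = 0.107) and *Msh4* of 0.61 (0.311). The estimates of *Ccnb1ip1*, *Tex11*, *Mlh3* and *Prr19* were 0.31, 0.23, 0.10 and -0.17. Without rescaling, *Msh5*, *Hfm1*, *Msh4* and *Ccnb1ip1* were called higher, 4 of 8, where 26.3% of all genes were. Marker lists moved in PreL as well. Early meiotic prophase markers summed to 92162 to 102910 in WT PreL and 115784 to 187510 in *Nat10*-SKO PreL. Of these 10 markers, 1 was called higher and none lower, with a median log2 fold change of 0.42. Late spermatocyte markers summed to 5383 to 19581 in WT PreL and 371 to 593 in *Nat10*-SKO PreL, with 5 of 6 tested called lower, and spermatid markers to 12550 to 20560 and 183 to 259, with 4 of 6 called lower. Leydig cell markers were at 133 to 344 in WT PreL and 853 to 7281 in *Nat10*-SKO PreL, with 5 of 5 called higher, and Sertoli cell markers were at 1368 to 1487 and 1351 to 17688, ranges that overlapped, with 3 of 6 called higher. The part of these markers in the members' PreL values was not tested.

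In SPG, none of the 8 members was called by limma, edgeR or DESeq2, where limma called 6.02% of all genes, and 2, *Hfm1* and *Tex11*, had an unadjusted p under 0.05. *Hfm1* had rescaled values of 959, 1065 and 1432 in *Nat10*-SKO, above the 771, 589 and 829 of WT (0.63, adjusted p = 0.0808). *Tex11* was lower in every *Nat10*-SKO library, at 11097, 10799 and 11141 against 12687, 14832 and 12750 (-0.30, adjusted p = 0.0959). The other 6 members overlapped between the genotypes. *Cntd1* varied most among them: *Nat10*-SKO SPG replicate 3 had 7 reads, and the other libraries of that group had 94 and 74 (-1.02, SE 0.62, adjusted p = 0.324). The estimates of *Msh4*, *Ccnb1ip1*, *Prr19*, *Msh5* and *Mlh3* were 0.80, 0.41, 0.31, 0.02 and -0.23. Early meiotic prophase markers summed to 56665 to 58206 in WT SPG and 82383 to 88125 in *Nat10*-SKO SPG, 7 of 10 having an adjusted p under 0.05 in that direction though none passed the fold threshold. Spermatid markers had 5 of 6 called lower and Leydig cell markers 4 of 5 called higher. Their part in the members' SPG values was not tested.

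**Figure D4:**
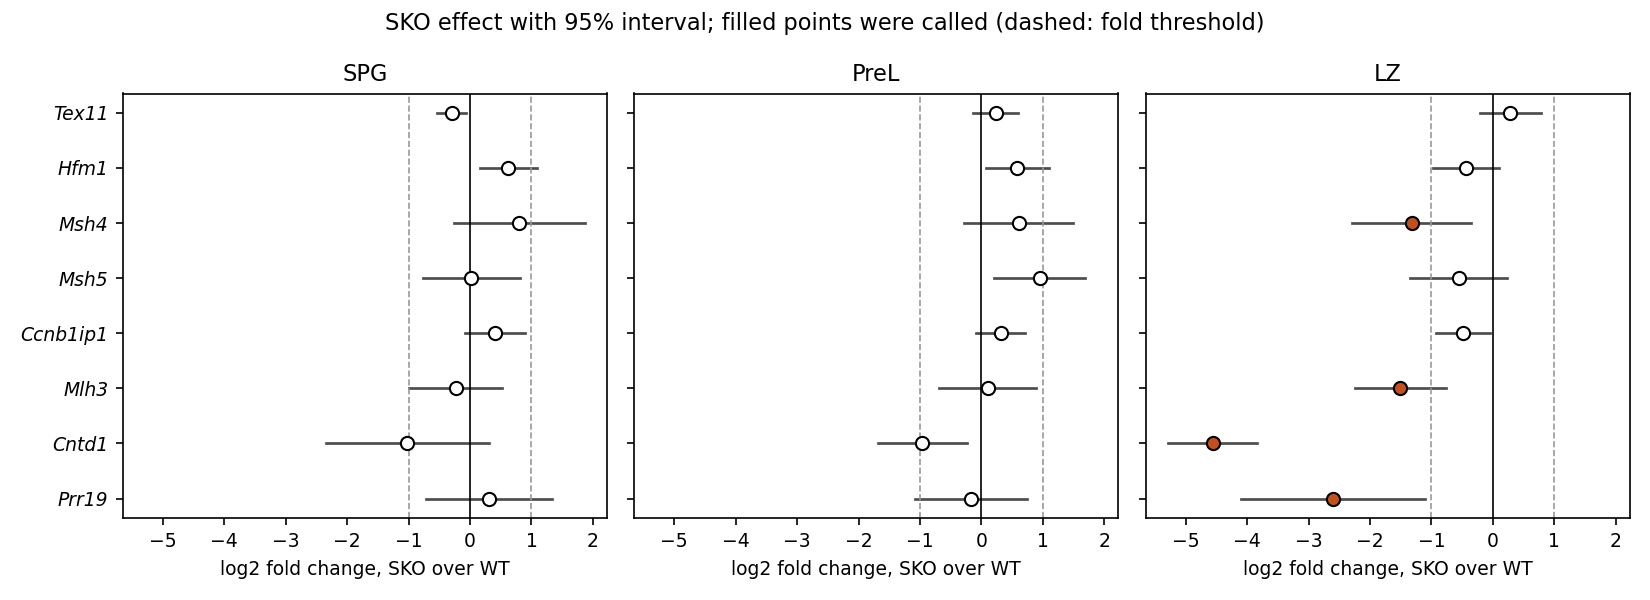
Log2 fold change of *Nat10*-SKO against WT for each listed member in SPG, PreL and LZ, with 95% intervals from limma. The intervals of *Cntd1*, *Prr19*, *Mlh3*, *Msh4* and *Ccnb1ip1* lie below 0 in LZ, as do that of *Cntd1* in PreL and that of *Tex11* in SPG. Those of *Msh5* in PreL and of *Hfm1* in SPG and PreL lie above 0.

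Whether the effect of genotype changed from stage to stage was tested by an interaction term over all 17 libraries, called at an adjusted p under 0.05. For 6 of 8 members the LZ effect lay below the PreL effect, where 23.1% of all genes were called in this direction. edgeR called 3 of the 8 and DESeq2 called 5. The difference was -3.49 for *Cntd1* (SE 0.81, adjusted p = 0.00251), -2.31 for *Prr19* (0.71, 0.0144) and -1.89 for *Msh4* (0.74, 0.0493). It was -1.57 for *Mlh3* (0.52, 0.0229), -1.48 for *Msh5* (0.50, 0.0254) and -0.999 for *Hfm1* (0.34, 0.0271). *Msh5* and *Hfm1* reached it with a positive estimate in PreL and a negative one in LZ, neither of them called on its own. *Ccnb1ip1* had a difference of -0.78 (adjusted p = 0.0512) and *Tex11* of 0.08 (0.823). The median difference was -1.52 over the members and -0.31 over all genes. Without WT LZ replicate 3, *Cntd1* alone stayed called (-3.24, adjusted p = 0.0174). Without *Nat10*-SKO LZ replicate 2 the count was 2 of 8, and without *Nat10*-SKO PreL replicate 3 it was 3 of 8. Between SPG and PreL the effect was called different for none of the 8 members by limma, edgeR or DESeq2, where limma called 0.362% of all genes, and 1 member, *Tex11*, had an unadjusted p under 0.05. The stage comparisons share their PreL and LZ libraries with the comparisons between genotypes.

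Per kilobase of exon, *Tex11* was the most abundant member in WT LZ, at a mean rescaled level of 1790 ± 525 per kb (SD, n = 2). *Ccnb1ip1* (611 ± 95), *Hfm1* (492 ± 151) and *Cntd1* (459 ± 116) followed. *Prr19* had a mean of 418 ± 360 per kb, from 163 in replicate 2 and 673 in replicate 3, so its place among them rested on replicate 3. *Msh5* (93.1 ± 25.5), *Mlh3* (91.8 ± 30.3) and *Msh4* (68.7 ± 8.34) had the lowest levels. The level of *Cntd1* per kb was taken over all 4421 exonic bases, 3104 of them shared with *Becn1*. How reads of the shared bases were assigned is not given, so the place of *Cntd1* is uncertain. In WT SPG, *Cntd1* (43.3 per kb) and *Prr19* (38.5) stood instead beside *Mlh3* (36.5), *Msh5* (33.7) and *Msh4* (22.8), while *Tex11* was at 3704, *Ccnb1ip1* at 476 and *Hfm1* at 109. Over the 6 groups, the mean rescaled level of *Cntd1* ran from 2030 in WT LZ and 411 in WT PreL to 202 in *Nat10*-SKO PreL, 191 in WT SPG, 111 in *Nat10*-SKO SPG and 81.7 in *Nat10*-SKO LZ. The libraries of WT LZ and WT PreL each stood apart from the next group in that order, and the lower groups overlapped. For *Prr19* and *Mlh3*, WT LZ stood apart and each of the other groups overlapped its neighbour.

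Other genes of recombination were read from fixed lists. A list of 6 genes held structure-selective nucleases, which cut branched DNA, with their partners and scaffold and the exonuclease *Exo1*. Of these, 4 were called lower in *Nat10*-SKO LZ, where 25.8% of all genes were: *Slx4*, a scaffold for nucleases (-2.66, adjusted p = 0.00133), *Mus81* (-2.34, 0.00196) and its partners *Eme2* (-2.18, 0.00611) and *Eme1* (-1.14, 0.0310). *Gen1* and *Exo1* had estimates of 0.07 and 0.36, and the median of the list was -1.66, against -0.13 over all genes. Of 8 genes for dissolution and anti-crossover helicases, *Top3a*, a topoisomerase, was called lower (-2.01, adjusted p = 0.00672) and *Rmi2*, a subunit of the same complex that the table lists by an older symbol, was called higher (3.63, 0.000125). The other 6 of these were not called, and the list median was -0.16. None of 6 somatic mismatch-repair genes was called, with log2 fold changes from -0.99 to 0.76. Of 7 further crossover factors, 4 were listed and 1 of them, *Brme1*, a partner of the meiotic BRCA2 complex, was called lower (-1.79, adjusted p = 0.00367), while *Shoc1*, *Spo16* and *Rnf212b* matched no symbol.

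The genes whose pattern was most like a member's were found by the root mean square difference of centred log2 levels over the 6 group means, among 10254 genes. For *Cntd1* these were *Lrriq3* (0.26), *Dnajc5g* (0.27) and *Stard10* (0.30), and for *Prr19* they were *Git1* (0.24), *Fam178b* (0.27) and *Gas8* (0.27). For *Hfm1* they were *Ptpn9* (0.19), *Stxbp5l* (0.24) and *Ccdc79* (0.26), and *Msh5* came in place 17 of this order. *Prr19* came in place 1012 in the order for *Cntd1*, although both peaked in WT LZ. The closest genes were *Tlcd1* for *Msh4* (0.13), *Klhl22* for *Msh5* (0.17), *Zfp259* for *Mlh3* (0.10), *Nsfl1c* for *Ccnb1ip1* (0.06) and *Chuk* for *Tex11* (0.10). These are descriptions over 6 points and carry no test.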

How the data were processed

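RNA of SPG, PreL and LZ cells sorted from WT and *Nat10*-SKO testes was amplified by Smart-seq2 (oligo-dT) with ERCC spike-in. The submitters' processing notes name TopHat2 2.1.1, HTSeq 0.11.2, Cufflinks 2.2.1 and DESeq2, and the builds mm9 and mm10. The values the authors deposited are a signal: read counts of each gene, from unique alignments, times 1 calibration factor per library (1 to 10.4) that reflects spike-in and cell input. The values were whole multiples of that factor (100% within 0.05 reads), which gave the recovered reads and depths. Reads carried no molecular identifiers, and intervals cover the spread between libraries, not amplification.

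Groups came from the labels. Size factors (median of ratios) were computed within each comparison. After removal of genes under a mean of 10 recovered reads, limma 3.58.1 (R 4.3.3) was applied to log2(rescaled value + 10) with a mean-variance trend, and p-values were adjusted by Benjamini-Hochberg over all genes tested. A log-scale test was chosen since calibrated values are no longer whole reads. Displayed levels were rescaled over all 17 libraries. The scripts were tested on simulated data. Alternatives were edgeR 4.0.16 and DESeq2 1.42.0 on the recovered reads, TMM scaling, no rescaling, other pseudocounts, filters and thresholds, 1 fit of all libraries, a replicate block and each library left out. Thinning of the WT LZ libraries was chosen after the data were seen. Replicates differed by more than counting noise, and none was a repeated library.

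Every member was named in every comparison, with *Nat10*. Of the other lists, up to 4 genes called in LZ were named by size of change, and for likeness the closest genes. *Gen1* and *Exo1*, *Becn1* and single marker genes were named after their values were seen. Members, gene lists and marker lists were chosen with earlier results of these data known. Positions come from GENCODE M21 (GRCm38). *Rnf212* was not analysed here.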

Additional observations from a re-analysis of the deposited data

Results flagged for a closer look

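The effect of genotype was not the same in PreL and LZ for 6 of the 8 listed members, by limma's interaction term over all 17 libraries with Benjamini-Hochberg adjustment. The difference of log2 fold changes (LZ minus PreL) was -3.49 for *Cntd1*, -2.31 for *Prr19*, -1.89 for *Msh4*, -1.57 for *Mlh3*, -1.48 for *Msh5* and -0.999 for *Hfm1*. Of all genes tested, 23.1% had a difference called in this direction. edgeR called 3 of the 8 members and DESeq2 called 5. Without WT LZ replicate 3, 1 member stayed called (*Cntd1*), without *Nat10*-SKO LZ replicate 2 there were 2, and without *Nat10*-SKO PreL replicate 3 there were 3. The summed late spermatocyte markers lay at 5383 to 19581 in WT PreL and 52171 to 125112 in WT LZ. In *Nat10*-SKO they lay at 371 to 593 in PreL and 531 to 637 in LZ. By the same interaction term, 2 of 7 late spermatocyte markers tested were called lower. Of 10 early meiotic prophase markers, 4 were called lower and 1 higher. The part of these markers in the members' differences was not tested.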

How the results depend on the processing

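Of 1476 member values under an alternative, 1374 kept their side of the threshold with no reversal, 53 lost the call and 42 gained one. A reversal was a change of sign where either value was called or the reported adjusted p was under 0.05. The 1374 include 58 values that changed sign without being called in either setting. The largest shifts came from values not rescaled: members called higher were then 4 in PreL between genotypes, 7 from PreL to LZ in WT, 6 from SPG to PreL and 1 from PreL to LZ in *Nat10*-SKO, and 4 for the effect in PreL minus that in SPG. Among all genes tested, the counts called higher were, in the same order, 3459 of 13132, 10861 of 13566, 5958 of 12653, 4291 of 12653 and 5938 of 13530. On that scale 7 values reversed: *Tex11* from PreL to LZ in WT (0.82), *Hfm1* (0.08), *Ccnb1ip1* (0.40) and *Tex11* (0.028) from PreL to LZ in *Nat10*-SKO, *Hfm1* (0.95) and *Ccnb1ip1* (0.89) in the effect of PreL minus SPG, and *Tex11* (-0.79) in the effect of LZ minus PreL. DESeq2 called 1 member lower in PreL and 2 higher from SPG to PreL in WT, edgeR called 1 lower from PreL to LZ in WT and 3 in the effect of LZ minus PreL, and TMM called 1 lower from PreL to LZ in *Nat10*-SKO. Without the fold threshold, 1 member was lower from PreL to LZ in WT and 3 in *Nat10*-SKO. With each library left out in turn, members called lower ranged from 0 to 1 in PreL, 1 to 4 in LZ, 0 to 1 from PreL to LZ in WT, 0 to 2 from PreL to LZ in *Nat10*-SKO and 1 to 7 in the effect of LZ minus PreL. With a lone WT LZ library left, it was assumed to vary like the other group. The cause of these changes was not tested. Same-numbered libraries did not deviate together (r from -0.05 to 0.11 over 6 pairs), and the libraries were treated as unpaired. With 2 or 3 libraries in a group, this check cannot exclude a pairing. With the replicate block, 1 member was called lower in PreL, 3 lower in LZ, and 2 higher from SPG to PreL and 2 from PreL to LZ in WT.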
